A study of Mus musculus with 33 samples.

Results

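Expression of 10 genes of natural killer (NK) cells was followed in mouse bone marrow. The genes were the surface receptors Klrd1, Klrc1, Klrk1, Ncr1 and Cd244, the cytotoxic effectors Gzma, Gzmb and Prf1, and the transcription factors Eomes and Tbx21. They were picked by probe name from the endogenous genes of a NanoString immune panel, and all 10 were present among its 750 endogenous probes and among the 655 genes tested. Bone marrow RNA came from 33 female C57BL/6 mice aged 6 to 8 weeks, wild type and with no transplant, in 13 groups. Mice were gavaged for 2 days with the BCL2 inhibitor venetoclax once a day, with the JAK1/2 inhibitor ruxolitinib 2 times a day, or with the vehicle of either drug, and marrow was taken on day 1, 3 or 7 after treatment. The labels give the drugs as 100 mg/ml venetoclax and 180 mg/ml ruxolitinib, with no volume. The venetoclax vehicle was a mixture of Phosal, polyethylene glycol and ethanol, and the ruxolitinib vehicle held DMSO, polyethylene glycol and water. Each drug group held 3 mice and each vehicle group 2 mice per day, and 3 mice were untreated. The p-values rest on the spread between these mice.

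NK cells are innate lymphocytes that mature in the bone marrow and kill stressed, infected or foreign cells without prior priming, and they are known as a barrier to engraftment of foreign marrow. Inhibitory receptors that read MHC class I molecules hold them back, activating receptors that read stress ligands release them, and killing then proceeds through perforin pores and granzymes. The pair of T-box factors T-bet (Tbx21) and Eomes directs their maturation. T cells, in particular CD8+ T cells, use many of the same genes, so the 10 as a list do not mark NK cells alone.

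The nCounter assay counts colour-coded probes on unamplified RNA, with 1 lane per mouse. Each lane was scaled by housekeeping probes, and the values below are normalised counts unless they are called raw. Probes differ in efficiency, so levels were compared within a gene and never between genes. In whole marrow, fewer cells of a type and less RNA per cell cannot be told apart. Endogenous counts summed to between 18056 and 466096 per lane (median 158944). Lanes of venetoclax day 1 replicate 1 (18056 counts) and ruxolitinib day 3 replicate 1 (26881 counts) were the only lanes under 30000. The lane headers name a day and so sort the lanes into 3 sets of 11, with 1 untreated mouse in each. A run below means such a set, so day and run cannot be told apart. Whether the sets were read apart on the instrument was not checked. All 8 neutrophil and myeloid precursor markers read as a check of the tissue, from Ltf (median 88.05) to S100a8 (median 79550), were above background in 33 of 33 lanes.

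The 3 lectin-like receptor genes lie in 1 stretch of chromosome 6 (GRCm38.p6): Klrd1 at chr6:129588092-129598775, Klrk1 at chr6:129610323-129623903 and Klrc1 at chr6:129666015-129682852. Ncr1 lies at chr7:4337715-4345184, Cd244 (Cd244a in current annotation) at chr1:171558718-171585316 and Gzma at chr13:113093824-113100981. Gzmb is at chr14:56258836-56262334, Prf1 at chr10:61297751-61304684, Eomes at chr9:118478186-118486132 and Tbx21 at chr11:97098007-97115331. The probes bind the mature transcripts, starting at base 434 of the Klrd1 transcript, base 391 of the Ncr1 transcript and base 188 of the Gzma transcript. Promoter sequence from RefSeq was at hand for 9 of the 10 genes, and not for Klrd1. The 250 bases ahead of the start of Ncr1 (plus strand, chr7:4337465-4337714) and Gzma (minus strand, chr13:113100982-113101231) are shown because these genes carried the main differences described below and had the most similar levels across mice of any pair of the receptor and effector genes compared. Capitals mark the letters TGTGGT on either strand, the core that RUNX factors read.
Ncr1: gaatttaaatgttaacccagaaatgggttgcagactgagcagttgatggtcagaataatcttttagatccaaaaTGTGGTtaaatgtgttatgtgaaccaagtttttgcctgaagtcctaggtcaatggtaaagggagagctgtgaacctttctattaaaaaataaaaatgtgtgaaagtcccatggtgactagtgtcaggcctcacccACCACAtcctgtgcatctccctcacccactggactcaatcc
Gzma: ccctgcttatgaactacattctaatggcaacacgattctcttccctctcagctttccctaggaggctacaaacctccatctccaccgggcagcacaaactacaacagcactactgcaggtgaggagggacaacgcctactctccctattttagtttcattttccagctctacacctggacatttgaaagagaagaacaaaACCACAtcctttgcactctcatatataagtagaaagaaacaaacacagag
These letters occurred in 6 of the 9 promoters, against 14.05% of 32851 mouse promoters of that length. The T-box letters GGTGTG, read on both strands, occurred in 0 of the 9, against 16.28% of promoters, and the ETS letters CAGGAAG in 2 of the 9 (Prf1 and Tbx21), against 10.82%. For RUNX, T-box and ETS factors alike, only the spelling given here was searched. A promoter without it may hold another spelling that these factors read. The Ncr1 and Gzma promoters share the 10 letters ACCACATCCT, which begin 41 bases ahead of the Ncr1 start and 50 bases ahead of the Gzma start and overlap the RUNX letters. That run was noticed on reading the sequences. It is the longest run that the Ncr1 and Gzma promoters share and was picked for that, so how rare it is lends it no weight. The run stands in 20 of the 32851 promoters (0.0609%), and 8 of the 36 pairs among the 9 promoters share a run that long or longer. A match of letters describes the sequence and does not show a bound site.

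Most of the receptor genes and Gzma were readily detected in whole marrow, whereas the other effectors were near the limit of the assay. Background was set in each lane at the mean plus 2 SD of 8 negative control probes, which came to between 1.83 and 7.85 raw counts. Cd244 was above it in 32 of 33 lanes, Klrd1 and Gzma in 30, Klrk1 in 28, Klrc1 in 27 and Ncr1 in 25. Eomes was above background in 20 lanes and Tbx21 in 12. Prf1, which encodes perforin, was above background in 5 lanes with a highest raw count of 8. Gzmb, which encodes granzyme B, was above background in 2 lanes with a highest raw count of 6, and it stood at 1, the lowest count the files hold, in 16 lanes. The comparisons of Gzmb and Prf1 therefore rest on a few counts per mouse.

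**Figure D1:**
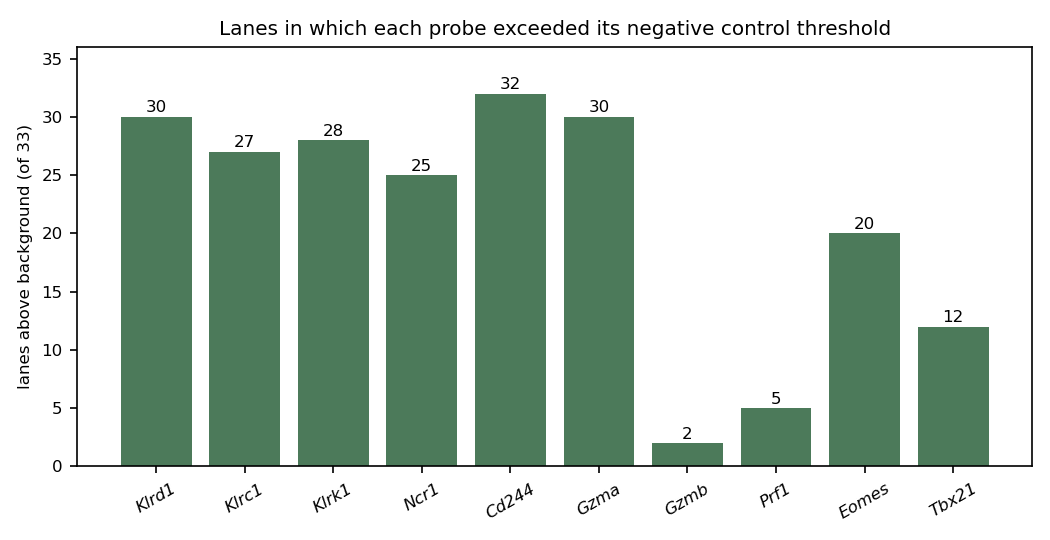
Number of lanes, of 33, in which the raw count of each of the 10 probes exceeded the mean plus 2 SD of the negative control probes of the lane. Bars run from 2 lanes for Gzmb to 32 lanes for Cd244.

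Against its own vehicle, neither drug moved any of the 10 genes past an adjusted p of 0.05 on any day or in the mean of the days. The test was the quasi-likelihood test of edgeR over all 655 genes with Benjamini-Hochberg adjustment, and 0 of the 10 genes passed in each of the 16 comparisons. DESeq2 and limma also called 0 of the 10 in each. At an unadjusted p under 0.05 1 gene passed for day 1 of venetoclax, 1 for its day 3 and 0 for its day 7, and for ruxolitinib the counts were 2, 1 and 0. Over all genes, the share past the adjusted threshold stood at 0.153% (day 1), 0% (day 3) and 0.153% (day 7) for venetoclax, and at 2.75%, 0.153% and 0.153% for ruxolitinib. At the unadjusted threshold it was 10.4%, 10.7% and 4.73% for venetoclax and 13.6%, 4.73% and 3.51% for ruxolitinib. In the mean of the 3 days the adjusted test called 2.9% of genes for venetoclax and 1.22% for ruxolitinib, and the unadjusted test 9.16% and 8.85%; of the 10 genes, 2 and 1 passed the latter. On day 1, 8 of the 10 were lower under ruxolitinib, with a median log2 difference of -0.49, while 40.9% of all genes were lower and their median was 0.13. Under venetoclax 5 were lower and 5 higher on day 1, with a median of -0.01, while 51.8% of all genes were lower. On day 3 the number lower was 5 for venetoclax and 7 for ruxolitinib, against 44.9% and 48.2% of all genes, and on day 7 it was 7 and 5, against 50.4% and 48.1%. In the mean of the days 7 of the 10 were lower under venetoclax and 9 under ruxolitinib, against 43.7% and 43.8% of all genes. The median log2 difference of the 10 was then -0.18 for venetoclax, with all genes at 0.04, and -0.10 for ruxolitinib, with all genes at 0.04. The single differences past the unadjusted threshold against the own vehicle on a day or in the mean of the days were those of Klrd1 and Gzma under venetoclax and of Ncr1 and Gzma under ruxolitinib, where Gzma was lower on day 1.

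**Figure D2:**
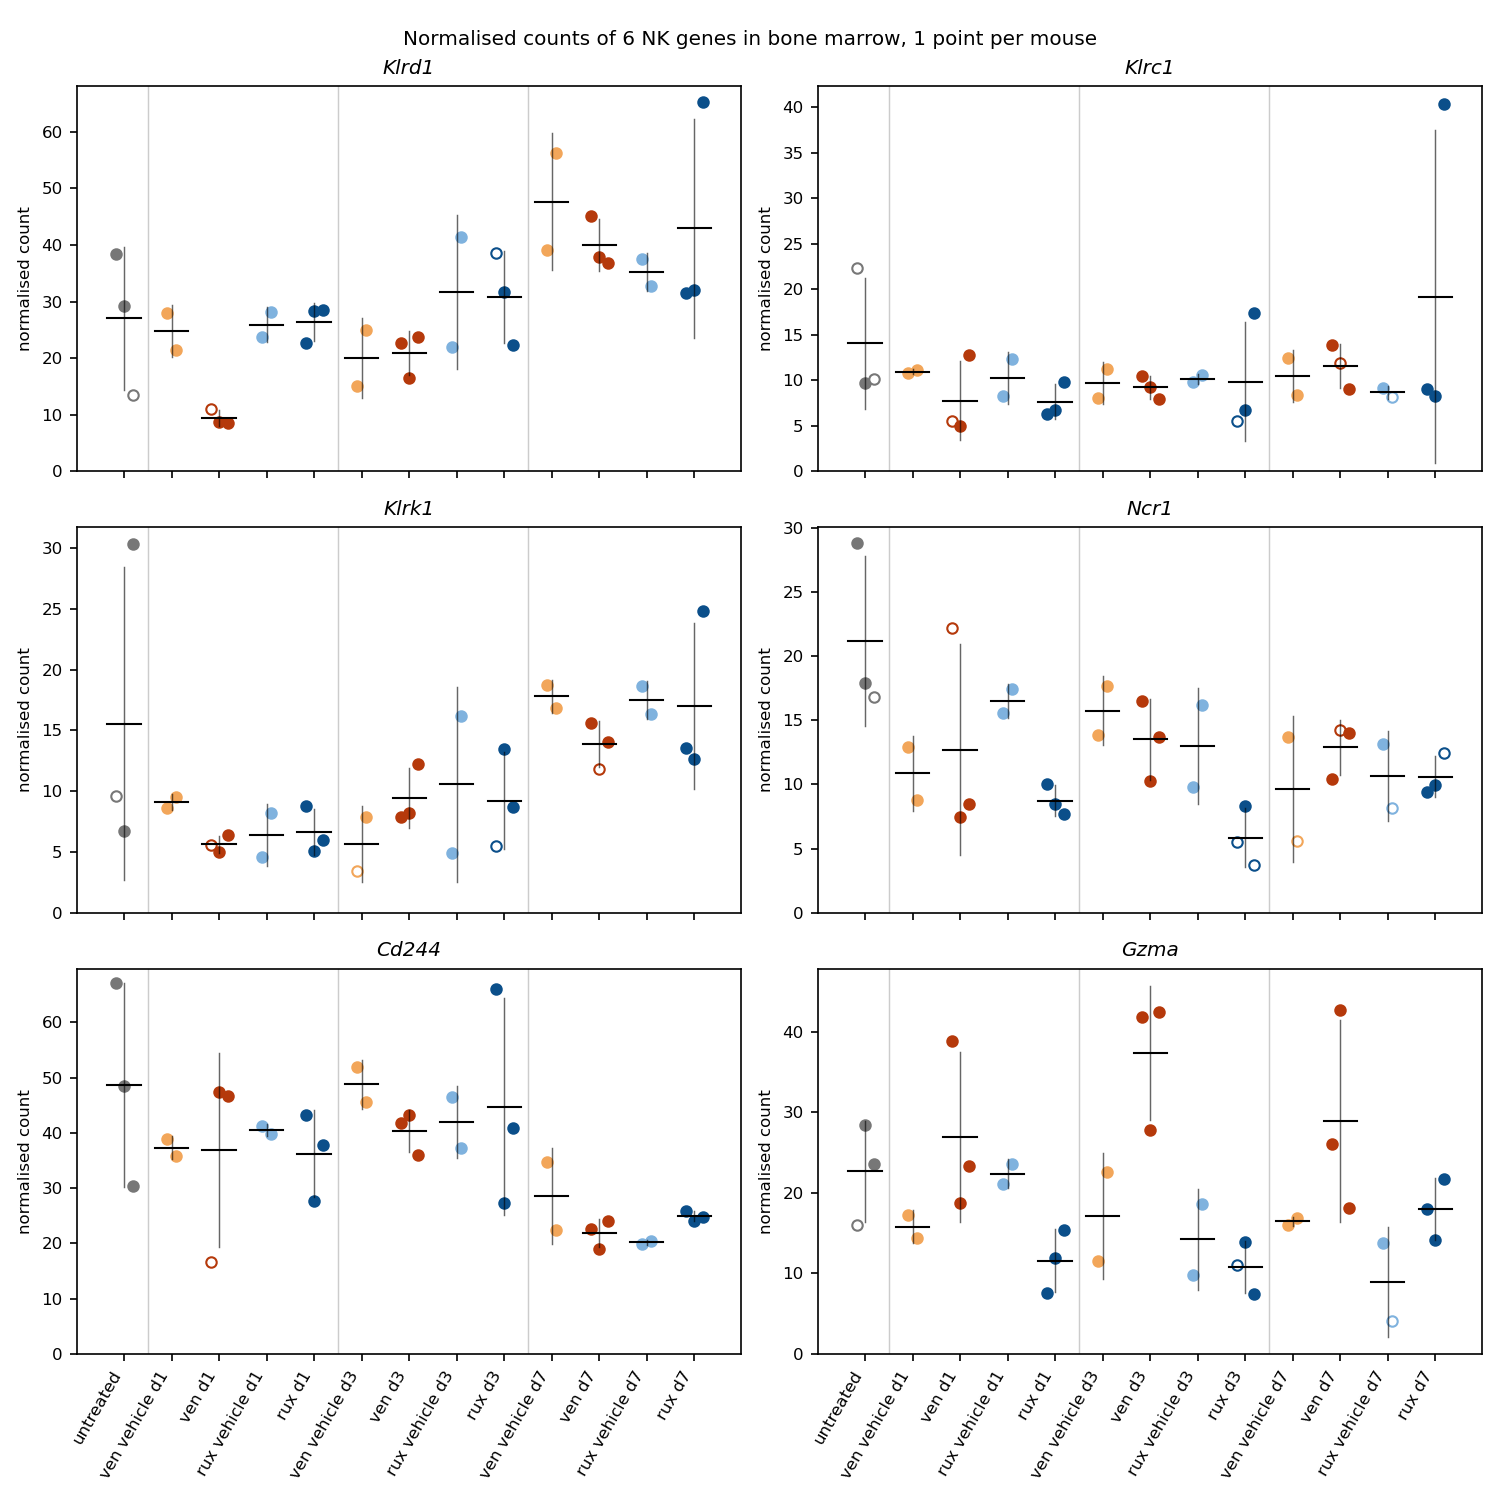
Normalised counts of 6 genes in 13 groups, 1 point per mouse, with vehicle (pale) and drug (dark) side by side on days 1, 3 and 7. Open points are lanes at or below background, horizontal lines are group means and vertical lines 1 SD; Klrd1 on day 1 after venetoclax (mean 9.43) and Gzma on day 3 (mean 37.4) are the lowest and highest group means of those genes.

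Klrd1 encodes CD94, which pairs with NKG2A, NKG2C or NKG2E into receptors for the class Ib molecule Qa-1. On day 1 after venetoclax the 3 mice had 11.1, 8.72 and 8.48 normalised counts of Klrd1, and the 2 vehicle mice had 28.1 and 21.5. All 3 treated mice were below both controls. They were also the lowest of all 33 mice. The log2 difference was -1.45 (SE 0.42, adjusted p = 0.0814, edgeR). The raw counts behind it were small, at 2, 14 and 4 against 26 and 27. The lane with 2 raw counts, venetoclax day 1 replicate 1, was not above background, and counting error alone gives it an exact Poisson 95% interval of 1.34 to 40.1 normalised counts. Without the lanes under 30000 counts the difference was -1.49 (adjusted p = 0.125). Klrd1 passed under 3 of 14 alternatives, whose log2 differences ran from -2.60 (limma after subtraction of the negative controls) to -1.30 and whose adjusted p ran from 0.0151 to 0.188. A fit of the 2 groups alone gave an adjusted p of 0.0297, pooling both vehicles of the day gave 0.0151, and the untreated mice as control gave 0.0255. With each mouse left out the log2 difference ran from -1.645 to -1.26.

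The lower Klrd1 level was seen on day 1 and not later. On day 3 venetoclax mice had 22.6, 16.5 and 23.8 and vehicle mice 14.99 and 25.1, and on day 7 the values were 45.2, 37.9 and 36.9 against 39.1 and 56.2. Treated and control mice overlapped on both days. In the mean of the days the log2 difference was -0.54 (SE 0.21, adjusted p = 0.253). It was -0.62 (adjusted p = 0.0382) with both vehicles pooled, and -0.93 (adjusted p = 0.419) with limma after subtraction of the negative controls. The difference on day 1 minus that on day 7 was -1.28 (SE 0.52, adjusted p = 0.571), so a change between days was not established. Ruxolitinib mice on day 1 had 22.6, 28.3 and 28.4 against 23.8 and 28.1, with a 95% interval of the log2 difference from -0.58 to 0.60. The venetoclax difference minus the ruxolitinib difference on day 1 was -1.46 (SE 0.51, adjusted p = 0.143), in a comparison that called 1.68% of all genes. It passed in a fit of the compared groups alone (-1.45, adjusted p = 0.0314). With limma after that subtraction it was -2.62 (adjusted p = 0.412), and the difference between days 1 and 7 was -2.31 (adjusted p = 0.642).

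Klrc1 encodes NKG2A, the inhibitory receptor that pairs with CD94. It was at 5.55, 4.98 and 12.7 in venetoclax mice on day 1, against 10.8 and 11.2 in vehicle mice, and the groups overlapped. The 5.55 came from 1 raw count, was not above background and had a counting interval of 0.140 to 30.9. In the mean of the days the 95% interval of the Klrc1 log2 difference was -0.94 to 0.30 for venetoclax and -0.62 to 0.50 for ruxolitinib. One ruxolitinib mouse on day 7 stood at 40.4 (13 raw counts), while the other mice of that group had 9.02 and 8.22. Klrk1 encodes NKG2D, the activating receptor for stress-induced class I-like ligands. On day 1 its level was 5.55, 4.98 and 6.36 in venetoclax mice and 8.63 and 9.56 in vehicle mice, so that all 3 treated mice were lower. These values came from raw counts of 1, 8 and 3 against 8 and 12. The lane with 1 raw count was not above background, and its counting interval of 0.140 to 30.9 spans both controls. On day 3 the direction was the other way, with 7.83, 8.24 and 12.2 against 3.46 and 7.86, and on day 7 treated mice were again lower, at 15.6, 11.9 and 14.1 against 18.8 and 16.9. Its interval in the mean of the days was -0.77 to 0.40 for venetoclax and -0.64 to 0.36 for ruxolitinib.

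Ncr1 encodes NKp46, an activating receptor largely restricted to NK cells and related innate lymphoid cells, and it was lower in ruxolitinib mice. On day 1 the treated mice had 10.0, 8.48 and 7.66, below both vehicle mice at 15.6 and 17.5. The log2 difference was -0.94 (SE 0.31, adjusted p = 0.117, and 0.0381 in a fit of the compared groups alone). That fit was the only 1 of 14 alternatives to pass, and their differences ran from -1.195 to -0.70. With each mouse left out the day 1 difference ran from -1.045 to -0.83. On day 3 the treated mice had 5.50, 8.31 and 3.72 and the vehicle mice 9.80 and 16.2, again without overlap. The difference was -0.97 (SE 0.41, adjusted p = 0.865), from raw counts of 1, 21 and 3 in the treated mice, of which 1 lane was above background. On day 7 the groups overlapped, at 9.43, 9.99 and 12.4 against 13.1 and 8.20, with a log2 difference of -0.27. Against untreated mice the day 7 difference was -0.9987 (adjusted p = 0.0443). In all, the 9 ruxolitinib mice ranged from 3.72 to 12.4 with a median of 8.48, and the 6 vehicle mice from 8.20 to 17.5 with a median of 14.3. The mean of the 3 days gave a log2 difference of -0.72 (SE 0.20, adjusted p = 0.0671).

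The adjusted p of Ncr1 in the mean of the days ran from 0.0145 to 0.661 over its alternatives. It was 0.0436 when genes with a mean count under 10 were left out, 0.0145 with both vehicles pooled and 0.0216 against untreated mice, where the difference was -1.24, but 0.339 by DESeq2 and 0.494 by limma. With each mouse left out the difference ran from -0.97 to -0.54, with adjusted p from 0.04999 (without ruxolitinib day 3 replicate 2) to 0.670 (without ruxolitinib vehicle day 7 replicate 1). The day 3 value depended on single mice. It was -0.51 without ruxolitinib vehicle replicate 2 and -1.71 without ruxolitinib replicate 2 of that day. It was -2.12 (adjusted p = 0.349) with limma after subtraction of the negative controls and -1.54 (adjusted p = 0.0739) against untreated mice. Under venetoclax the interval for Ncr1 in the mean of the days was -0.55 to 0.34. In 9 venetoclax mice it ranged from 7.48 to 22.2 with a median of 13.7, and in their 6 vehicle mice from 5.62 to 17.7 with a median of 13.3. The difference between the drugs in the mean of the days was 0.62 (SE 0.30, adjusted p = 0.552), in a comparison that called 0.611% of genes, and 0.98 without venetoclax vehicle day 7 replicate 1 and 1.05 (adjusted p = 0.994) with limma after that subtraction. Untreated mice had the highest mean, at 28.8, 17.9 and 16.9, but the mouse at 28.8 was read in the run of day 1 and each of the others in another run.

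Cd244 encodes 2B4, a receptor of the SLAM family that binds CD48. It was the most widely detected of the 10 and differed little between a drug and its own vehicle. The 95% interval of the log2 difference in the mean of the days was -0.53 to 0.16 for venetoclax and -0.35 to 0.35 for ruxolitinib. On day 3 venetoclax mice had 41.8, 43.2 and 36, all below vehicle mice at 51.9 and 45.7, and on day 7 ruxolitinib mice had 25.8, 24.1 and 24.9, all above vehicle mice at 19.8 and 20.5. These separations were of opposite direction in the 2 drugs, and neither reached an unadjusted p of 0.05. With the untreated mice as control, Cd244 passed the threshold on day 7 and was lower in the mice of both drugs. The log2 difference was -1.10 for venetoclax (adjusted p = 0.0140) and -0.97 for ruxolitinib (adjusted p = 0.0228), where the direction was thus turned. Only the untreated mouse at 30.3 was in the run of day 7, and those at 67.2 and 48.5 were in the other runs. Vehicle mice of day 7 were low as well, at 34.8 and 22.5 for venetoclax and 19.8 and 20.5 for ruxolitinib. The part of the run in these differences was not tested. On day 1 the shallow venetoclax lane had 16.6 (3 raw counts) while the other mice of its group had 47.3 and 46.7.

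Gzma encodes granzyme A, a serine protease of cytotoxic granules, and it was higher in venetoclax mice on every day. On day 1 they had 38.8, 18.7 and 23.3, with vehicle mice at 17.3 and 14.3. The 38.8 came from 7 raw counts in the lane under 30000, with a counting interval of 15.6 to 79.99. The intervals of the treated mouse at 18.7 (12.6 to 26.7) and the vehicle mouse at 17.3 (9.87 to 28.03) overlapped. On day 3 the values were 41.8, 27.8 and 42.5 against 11.5 and 22.6, and on day 7 they were 26.1, 42.7 and 18.1 against 16.02 and 16.9. All 3 treated mice were above both controls of their day on each of the 3 days, but the counting intervals of the nearest treated and vehicle mice overlapped on each day. Gzma was 1 of 2 genes of 655 (0.305%) with this pattern; the other was Creb1. Over all days, the 9 venetoclax mice ranged from 18.1 to 42.7 with a median of 27.8, and the 6 vehicle mice from 11.5 to 22.6 with a median of 16.4. The log2 difference on day 3 was 1.03 (SE 0.34, adjusted p = 0.218), and 0.74 to 1.70 with each mouse left out, the higher value without vehicle replicate 2. Against untreated mice it was 0.61 (adjusted p = 0.5035). In the mean of the days it was 0.72 (SE 0.23, adjusted p = 0.0862), which did not pass the threshold.

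The adjusted p of Gzma in the mean of the days ran from 0.0126 to 0.867 over its alternatives. With both vehicles of a day pooled, the mean difference was 0.74 with an adjusted p of 0.0126. Against the 3 untreated mice, at 16, 28.4 and 23.6, it was 0.16 with an adjusted p of 0.867. With each mouse left out it ran from 0.63 to 0.95, with adjusted p from 0.0350 to 0.362. Leaving out venetoclax vehicle day 3 replicate 2 gave 0.95 (adjusted p = 0.0393), and leaving out venetoclax day 7 replicate 3 gave 0.87 (adjusted p = 0.0350). Without the lanes under 30000 counts the difference was 0.67 (adjusted p = 0.158).

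Under ruxolitinib Gzma did not keep 1 direction. On day 1 treated mice had 7.53, 11.9 and 15.3, all below the vehicle mice at 21.1 and 23.6. The log2 difference was -0.95 (SE 0.35, adjusted p = 0.184, and 0.0335 in a fit of the compared groups alone). Of 14 alternatives only that fit passed, and their differences ran from -1.07 to -0.74. With each mouse left out the day 1 difference ran from -1.20 to -0.73. On day 3 they had 11.01, 13.8 and 7.44 against 9.80 and 18.6, which overlapped. On day 7 they had 18.04, 14.1 and 21.7, all above vehicle mice at 13.7 and 4.10. The 4.10 came from 2 raw counts and was not above background. The counting intervals of the treated mouse at 14.1 (10.4 to 18.7) and the vehicle mouse at 13.7 (10.02 to 18.4) overlapped. The difference on day 1 minus that on day 7 was -1.45 (SE 0.52, adjusted p = 0.253), in a comparison that called 1.53% of genes, and without ruxolitinib vehicle day 7 replicate 1 it was -2.94 (adjusted p = 0.173). It was -3.14 (adjusted p = 0.912) with limma after subtraction of the negative controls. The difference between the drugs was 1.47 (SE 0.55, adjusted p = 0.176) on day 1, 1.37 (SE 0.56, adjusted p = 0.999) on day 3 and 0.98 (SE 0.32, adjusted p = 0.1803) in the mean of the days. None of these passed the threshold, but the day 1 value did in a fit of the compared groups alone (1.44, adjusted p = 0.04497). The mean of the days was 0.49 (adjusted p = 0.961) without ruxolitinib vehicle day 7 replicate 1, and the day 3 value was 0.77 without ruxolitinib vehicle day 3 replicate 2 and 2.74 with limma after that subtraction.

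**Figure D3:**
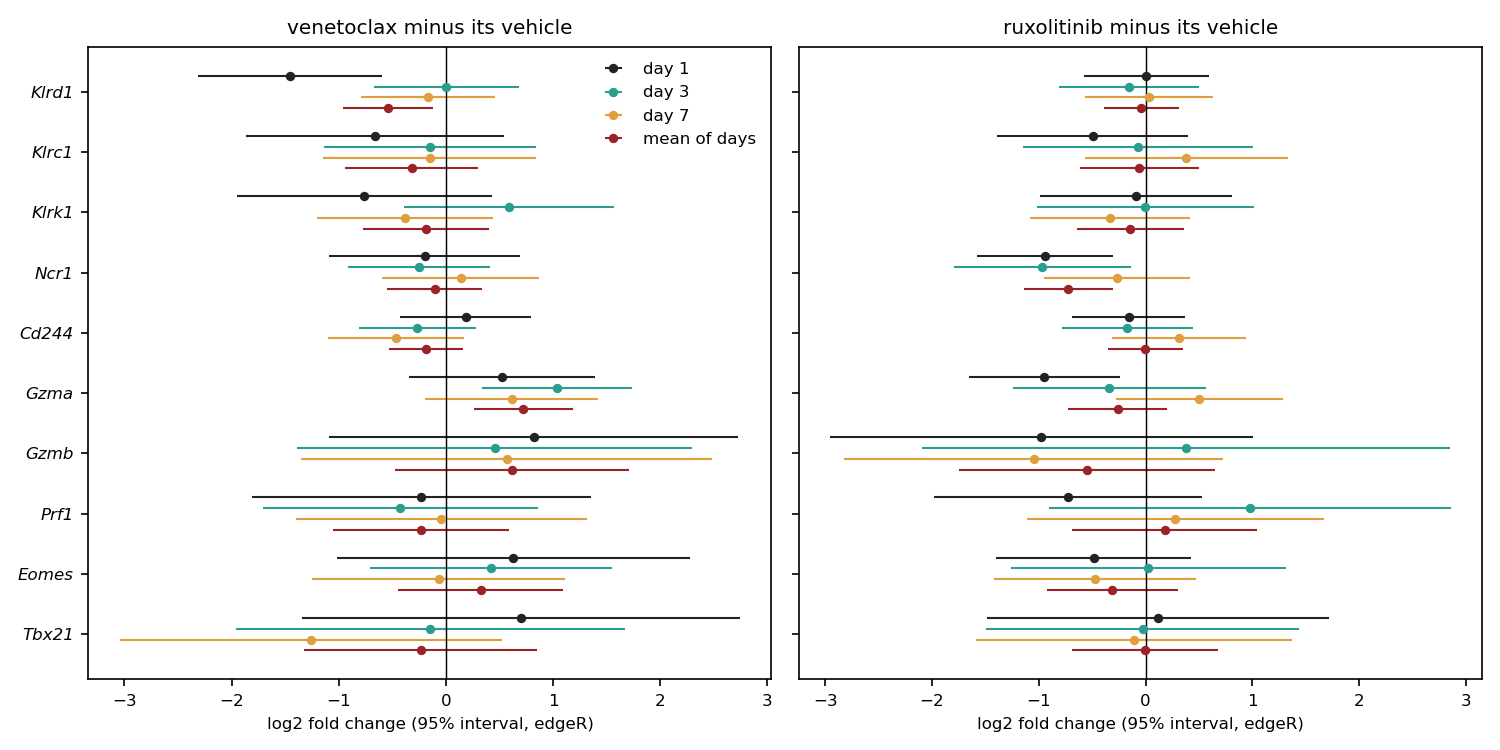
Log2 difference between each drug and its vehicle for the 10 genes on days 1, 3 and 7 and in the mean of the days, with 95% intervals derived from the edgeR test statistic. The vertical line marks no difference. The venetoclax mean interval lies below 0 for Klrd1 (-0.96 to -0.12) and above 0 for Gzma (0.26 to 1.18), and the ruxolitinib mean interval lies below 0 for Ncr1 (-1.14 to -0.31), all before adjustment over the genes tested.

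The venetoclax and ruxolitinib differences were also compared directly for all 10 genes. At the unadjusted threshold 2 genes passed on day 1 (13.4% of all genes), 1 on day 3 (3.05%), 0 on day 7 (3.82%) and 2 in the mean of the days (8.7%). After adjustment 0 of the 10 passed, with 1.68%, 0.153%, 0.305% and 0.611% of all genes called. Between days 1 and 7, 1 gene passed the unadjusted threshold for venetoclax (5.65% of all genes) and 1 for ruxolitinib (9.62%), and 0 the adjusted one, which 0% and 1.53% of all genes passed.

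The other effectors and the transcription factors gave little information. Granzyme B transcripts ranged from 1.03 to 11.1 in 9 venetoclax mice with a median of 2.49, of which 1 lane was above background, and from 0.982 to 2.81 in 6 vehicle mice, of which 0 were. In ruxolitinib mice they ranged from 0.294 to 11.01, with 0 of 9 lanes above background. Perforin transcripts ranged from 0.72 to 5.55 in venetoclax mice and from 1.08 to 4.61 in their controls. The highest Gzmb and Prf1 values in the drug groups came from lanes under 30000 counts, where 1 raw count becomes 5.55 or 5.50 normalised counts. Eomes ranged from 2.12 to 11.1 (median 5.21) in venetoclax mice and from 0.797 to 11.2 (median 4.37) in their vehicle mice. In ruxolitinib mice it ranged from 3.11 to 7.44 (median 5.66), against 3.24 to 9.24 (median 7.77) in vehicle mice. On day 7 all 3 ruxolitinib mice, at 6.15, 6.17 and 3.11, were below the vehicle mice at 8.24 and 8.20. The 3.11 came from 1 raw count and the 8.20 from 4, and neither lane was above background. The counting intervals of the treated mouse at 6.17 (3.82 to 9.43) and the vehicle mouse at 8.24 (5.43 to 11.99) overlapped. Tbx21 was above background in 2 of 9 venetoclax, 3 of 6 venetoclax vehicle, 4 of 9 ruxolitinib and 3 of 6 ruxolitinib vehicle lanes, and its 95% interval was -1.32 to 0.85 for venetoclax and -0.69 to 0.68 for ruxolitinib in the mean of the days.

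Counted over the 10 genes, all venetoclax mice were below their vehicle mice for 2 genes and above for 1 on day 1, where 15.7% of all genes were below and 11.8% above (27.5% without overlap). On day 3 the counts were 1 and 1, with 13.1% of all genes below and 13% above (26.1%), and on day 7 again 1 and 1, with 10.7% and 6.56% (17.3%). For ruxolitinib the counts on day 1 were 3 and 0, with 16.3% of all genes below and 27.6% above (44%). On day 3 they were 1 and 1, with 7.94% and 7.63% (15.6%), and on day 7 they were 1 and 2, with 9.62% and 8.09% (17.7%). At most 3 of the 10 genes were thus apart in any comparison. A single day of 3 mice against 2 has 10 arrangements, and a two-sided exact permutation test cannot go below 0.2, the value reached where groups did not overlap.

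The vehicles themselves were compared with untreated mice as the background of gavage and solvent. Of the 10 genes, 9 were lower in the mean of the 6 vehicle groups and Klrd1 was higher, with 0 past the adjusted threshold and a median log2 difference of -0.50, against -0.14 for all genes, of which 69% were lower. Of all genes 0% passed the adjusted threshold and 11.5% the unadjusted one. Cd244 differed by -0.47 (SE 0.22, adjusted p = 0.409) and Eomes by -0.88 (SE 0.43, adjusted p = 0.426). Eomes was at -0.50 with limma in place of edgeR and at 0.25 with limma after subtraction of the negative control level, so its direction is not settled. The Cd244 value was -0.29 without untreated replicate 1. Between the vehicles, Eomes was higher in the ruxolitinib vehicle by 0.81 (SE 0.37, adjusted p = 1.00), in a comparison that called 0% of genes and 2.75% before adjustment. With each vehicle mouse left out this value ran from 0.47 (without venetoclax vehicle day 7 replicate 1) to 1.29 (without venetoclax vehicle day 1 replicate 1).

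Across all 13 groups, levels of a gene were spread widely among mice of a group, and the order of the groups was loose. For Klrd1 the highest group mean was 47.6 ± 12.1 (SD, n = 2) in venetoclax vehicle mice on day 7 and the lowest 9.43 ± 1.44 (SD, n = 3) in venetoclax mice on day 1, and 2 of the 12 neighbouring pairs in the order were further apart than both SDs. For Gzma the highest was 37.4 ± 8.28 (SD, n = 3) in venetoclax mice on day 3 and the lowest 8.92 ± 6.82 (SD, n = 2) in ruxolitinib vehicle mice on day 7. For Ncr1 it was 21.2 ± 6.61 (SD, n = 3) in untreated mice and 5.84 ± 2.31 (SD, n = 3) in ruxolitinib mice on day 3. Cd244 ran from 48.8 ± 4.39 (SD, n = 2) in venetoclax vehicle mice on day 3 to 20.2 ± 0.461 (SD, n = 2) in ruxolitinib vehicle mice on day 7. Klrk1 ran from 17.8 ± 1.34 (SD, n = 2) in venetoclax vehicle mice on day 7 to 5.63 ± 0.694 (SD, n = 3) in venetoclax mice on day 1. For Ncr1, Cd244, Klrk1 and Gzma, 1 of 12 neighbouring pairs each was further apart than both SDs, and for Klrc1 and Eomes 0 were.

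Levels of 3 receptor genes differed between runs in vehicle as well as drug mice. Klrk1 averaged 7.03 ± 1.94 (SD, n = 11 lanes) in the run of day 1, 8.65 ± 3.86 in that of day 3 and 17.6 ± 5.57 in that of day 7. Klrd1 averaged 22.5 ± 9.50, 26.2 ± 8.32 and 38.9 ± 13.5 in the same runs. Cd244 went the other way, at 40.2 ± 12.5, 44.1 ± 9.90 and 24.4 ± 4.67. The untreated mouse of each run, which had no treatment day, had 9.60, 6.72 and 30.3 for Klrk1 and 67.2, 48.5 and 30.3 for Cd244. For Klrd1 it had 38.4, 29.1 and 13.5, the reverse of the run means. The 13.5 came from 4 raw counts, was not above background and had a counting interval of 3.67 to 34.5. Ncr1, at 13.4, 12.1 and 11.6, and Gzma, at 18.9, 21.4 and 19.6, had run means close to each other. Drug and vehicle were compared within a run, and the part of the run in these levels was not tested.

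**Figure D4:**
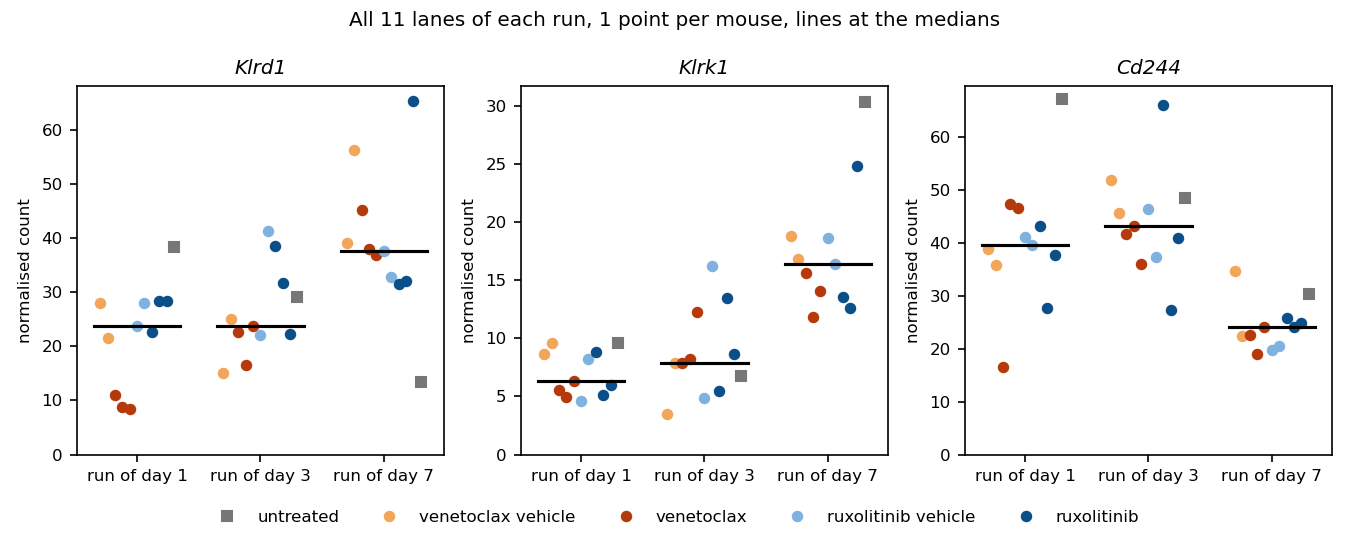
Normalised counts of Klrd1, Klrk1 and Cd244 in the 11 lanes of each run, 1 point per mouse, with lines at the run medians and squares for the untreated mouse of the run. Klrk1 is higher and Cd244 lower in the run of day 7, in vehicle as well as drug mice.

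The genes were compared in their pattern over the 33 lanes by Spearman's rho, as a description without a test, since lanes share runs and scaling. Among the 6 of the 10 genes that were above background in at least 25 lanes, Ncr1 and Gzma had the highest rho at 0.589, and 0.573 after the mean of each run was subtracted. Klrd1 and Klrk1 had 0.584 over all lanes and 0.302 within runs. Klrd1 and Klrc1, whose products form a receptor pair, had 0.226 and 0.242. Klrk1 and Cd244 had -0.63 over all lanes but -0.12 within runs. Among 442 candidate genes, the closest to Klrd1 were Mef2c (0.764), Il18 (0.76) and Hif1a (0.721), and to Klrk1 Yy1 (0.841, but 0.532 within runs), Ceacam1 and Clec7a. Cd244 was closest to Flt3l (0.923, and 0.786 within runs), Atf2 and Tyk2. Ncr1 was closest to Gzma, Nlrc5 and Il7r, and Gzma to Ncr1, Nlrc5 and Ifi27. Klrc1 had no near neighbour, the closest being Vhl (0.391), Pml and Itga5.

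**Figure D5:**
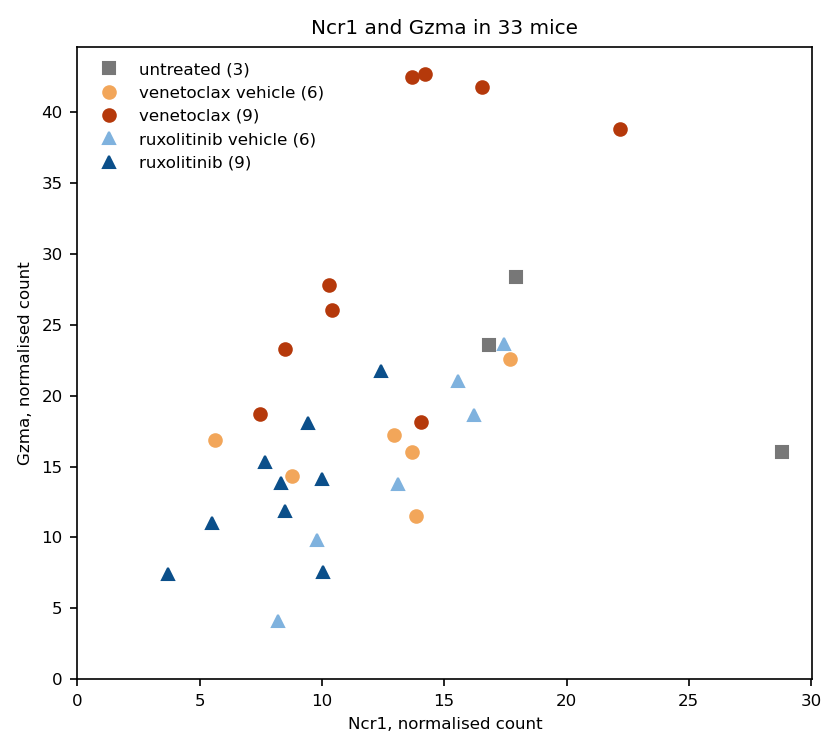
Gzma against Ncr1, both in normalised counts, in 33 mice; colours and symbols mark the treatment, with days pooled. Venetoclax mice lie high on the Gzma axis (18.1 to 42.7), and ruxolitinib mice lie low on the Ncr1 axis (3.72 to 12.4).

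The panel held further genes of NK cells. Of 25 other NK receptors and adaptors tested, such as Klra and Klrb family genes, 0 passed the adjusted threshold in any comparison. In venetoclax mice on day 1, 16 were lower and 9 higher, with a median log2 difference of -0.22, while 51.8% of all genes were lower and their median was -0.02. On day 3 it was 14 and 11, with 44.9% of all genes lower, and on day 7 it was 13 and 12, with 50.4%. For ruxolitinib on day 1, 9 were lower and 16 higher, with a median of 0.14, while 40.9% of all genes were lower and their median was 0.13. On day 3 under ruxolitinib 15 were lower and 10 higher, and on day 7 it was 12 and 13, with 48.2% and 48.1% of all genes lower. In vehicle against untreated mice 22 were lower and 3 higher, with a median of -0.39, while 69% of all genes were lower and their median was -0.14. Among 13 other cytotoxic effectors tested, such as Ccl5, Ctsw and Lamp1, and 5 other NK transcription factors, 0 passed in any comparison. The same held for the 4 ligands tested, which include Cd48, the ligand of 2B4 (median 109.4 normalised counts), and H2-T23, which encodes Qa-1 (median 351.8). Both ligands were above background in 33 of 33 lanes. Of 16 genes of the cytokines that sustain and activate NK cells, 1 passed in the mean of the days under venetoclax, where 2.9% of all genes did. This was Il18r1, a chain of the interleukin-18 receptor, which fell by 0.69 on the log2 scale (SE 0.19, adjusted p = 0.0346). It ranged from 5.55 to 30.96 with a median of 18.5 in 9 venetoclax mice, and from 27.99 to 37.4 with a median of 31.8 in 6 vehicle mice. In the 6 ruxolitinib vehicle mice it ranged from 14.3 to 31.5 with a median of 19.7, overlapping both.

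Since T cells share many of these genes, T cell markers were read beside them. In the mean of the days under venetoclax, 11 of 12 were lower and 3 of 12 passed, with a median log2 difference of -0.52. Over all genes tested, 43.7% were lower and 2.9% passed, with a median of 0.04. The co-receptor gene Cd8a fell by 1.90 (SE 0.46, adjusted p = 0.0140). It was above background in 0 of 9 venetoclax lanes, against 6 of 6 vehicle lanes, so the size of this difference is not exact. Cd3d, a chain of the T cell receptor complex, fell by 0.94 (SE 0.23, adjusted p = 0.0153), and the signalling kinase gene Zap70 by 0.97 (SE 0.24, adjusted p = 0.0162). The summed level of the 12 markers was 77.9 to 149.7 in venetoclax mice and 106.8 to 235.9 in vehicle mice. The summed level of the 10 NK and cytotoxic genes was 101.5 to 161.2 and 108.3 to 151.7. On day 1 the marker sums overlapped, at 77.9 to 149.7 in venetoclax and 106.8 to 128.4 in vehicle mice, with 8 of the 12 markers lower and 0 past the adjusted threshold. On day 3, when Gzma differed most, the sums did not overlap, at 87.5 to 94.9 against 146.4 to 159.1. On that day 11 of the 12 markers were lower, with a median log2 difference of -0.71 and 0 past the threshold. On day 7 the sums were 85.9 to 149.4 against 144.6 to 235.9, with 11 of 12 lower and 0 past it. On day 3 under venetoclax 6 of the 8 neutrophil and myeloid precursor markers were higher, with a median of 0.84 and 0 past the threshold. Over all genes 44.9% were lower, with a median of 0.06. Of the 8 B cell markers 5 were lower on day 1 under venetoclax and 0 passed, against 51.8% of all genes lower. Their sum was 423.6 to 451.8 in treated and 481.2 to 586.9 in vehicle mice, and on days 3 and 7 the sums overlapped. The part of T, B or myeloid cells in the Klrd1 and Gzma values was not tested. Under ruxolitinib, 9 of 12 T cell markers were lower in the mean of the days and 0 passed, against 43.8% of all genes lower and 1.22% past the threshold. Of the other marker lists, the interferon-induced plasmacytoid marker Bst2 fell by 0.51 (SE 0.14, adjusted p = 0.0320) under venetoclax. The B cell gene Cd22 fell by 0.80 (SE 0.23, adjusted p = 0.0476) under venetoclax, and the B cell factor Pax5 by 0.83 (SE 0.21, adjusted p = 0.0264) under ruxolitinib. In the mean of the days 7 of the 8 neutrophil and myeloid precursor markers were higher under each drug. Their medians were 0.26 for venetoclax and 0.33 for ruxolitinib, with 43.7% and 43.8% of all genes lower. On day 7 under ruxolitinib 8 of these 8 were higher, with a median of 0.28. None of these myeloid markers passed the adjusted threshold. The summed level of the 8 B cell markers in ruxolitinib mice was above that of vehicle mice on day 1 and below it on days 3 and 7. On day 1 their sum was 659.5 to 741.8 in treated and 604.2 to 611.7 in vehicle mice, with 3 of 8 lower. On day 3 it was 303.7 to 401.8 against 587.9 to 624.5, with 8 of 8 lower and a median log2 difference of -0.95. On day 7 it was 248.1 to 335.7 against 528.7 to 534.5, with 7 of 8 lower and a median of -0.80. None of the 8 passed the adjusted threshold on a single day, and 40.9%, 48.2% and 48.1% of all genes were lower on these days. Ncr1 was lower in treated mice on day 1, when the B cell sums were higher, and on day 3, when they were lower; the part of B cells in its value was not tested. In the ruxolitinib difference on day 1 minus that on day 7, 1 of the 8 B cell markers passed, against 1.53% of all genes. This was Ms4a1, at 2.01 (SE 0.48, adjusted p = 0.0148).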

How the data were processed

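RNA was extracted from total bone marrow and read on the nCounter, 1 lane per mouse. The deposited values are raw counts of each probe as the authors exported them, with 20 housekeeping, 8 negative and 6 positive control probes. The normalisation with nCounter Advanced Analysis that the methods name is not in these counts. The methods and the deposited text name different mouse immune panels, and the methods give doses in mg/kg. The header of the run of day 3 reads day 2.

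Groups followed the labels. For scaling, the geometric mean was taken over the 11 housekeeping probes that exceeded background in all lanes. The quasi-likelihood test of edgeR 4.0.16 (R 4.3.3) was run on genes exceeding background in 2 or more lanes, with the 13 groups fitted together (20 residual degrees of freedom, biological coefficient of variation 20.2%), adjusted by Benjamini-Hochberg at 0.05. Intervals cover 95%. The precision is limited by counting error at low counts and by the number of mice. Alternatives were other scalings, DESeq2 1.42.0, limma 3.58.1 on log2(normalised count + 1), other filters, controls and sets of lanes.

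All 10 genes were described, and log2 differences with SE were given where the unadjusted p was under 0.05. Other genes were named as the 3 most alike in pattern or as passing members of the lists. Ccl5, Ctsw, Lamp1, Cd48, H2-T23, Ltf and S100a8, as examples of their lists, and Creb1 were named after their values were seen. The members and lists were chosen with earlier results of these data known. Promoters came from RefSeq (GRCm38.p6), and 9 genes matched by symbol and Cd244 through a synonym. Figures and exact tests used Python 3.11.15.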

Additional observations from a re-analysis of the deposited data

How the results depend on the processing

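Of the 10 genes, 0 passed in any comparison under each other scaling, DESeq2, limma, no filter, the replicate block and the removal of the lanes under 30000 counts. A fit of the compared groups alone called 1 gene for venetoclax on day 1 (Klrd1), 2 for ruxolitinib on day 1 (Gzma with an adjusted p of 0.0335 and Ncr1 with 0.0381) and, for venetoclax against ruxolitinib differences on day 1, 2 genes (Gzma 1.44 and Klrd1 -1.45). Pooling both vehicles called 1 gene for venetoclax on day 1 (Klrd1), 2 for venetoclax in the mean of the days (Gzma and Klrd1, -0.62, adjusted p = 0.0382) and 1 for ruxolitinib in the mean of the days (Ncr1). Untreated mice as control called 1 gene for venetoclax on day 1 (Klrd1), 1 on day 7 (Cd244, -1.10), 2 for ruxolitinib on day 7 (Cd244, -0.97, and Ncr1, -0.9987) and 1 for its mean of the days (Ncr1), and these 3 mice lay in 3 runs. A mean count of at least 10 called 1 gene for ruxolitinib in the mean of the days (Ncr1).

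When single mice were omitted (leave-one-out), counts were 0 to 1 for the mean of the days of venetoclax (Gzma, without venetoclax vehicle day 3 replicate 2 or venetoclax day 7 replicate 3) and of ruxolitinib (Ncr1, -0.97, without ruxolitinib day 3 replicate 2, adjusted p = 0.04999), and 0 in the other comparisons. Groups left with 1 mouse were assumed to vary like the others. Eomes in vehicles against untreated mice reversed from -0.88 to 0.25 after subtraction of the negative controls with limma; the cause was not tested. Replicate numbers are shared between groups, and the mice were treated as unpaired. Deviations of same-numbered mice correlated between -0.349 and 0.303. With 2 mice in a vehicle group their deviations mirror each other, so these correlations cannot tell whether the mice were paired. With the replicate block 0 genes were called, and Gzma under venetoclax was 0.72 (adjusted p = 0.164). The likeness within runs was added after the data were seen. Low counts limit Gzmb, Prf1, Tbx21 and Eomes, and the lane threshold at 3 SD left Gzmb above background in 1 lane.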
